A study of Mus musculus with 8 samples.

Results

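The genes described here are 35 genes of meningeal and arachnoid fibroblasts, the connective tissue cells of the sheets around the brain and spinal cord, out of 54532 genes in the deposited count table. They were chosen by name, and in part selected on measured values: several had been seen at high and low levels across the libraries of this same table, so their levels by library are a description and carry no test. Of the 35 genes, 34 passed the filter on low counts and Slc22a2 did not. RNA was sequenced from the injured cord of mice 7 days after the injury. The controls, named control 1 to 4 below, are 4 libraries of genotype Tia1f/f, and CKO 1 to 4 are 4 libraries of genotype Tia1Nestin-CKO. The genotype names are those of mice with a floxed Tia1 gene and of a conditional knockout driven from Nestin, which marks neural progenitors. Fibroblasts of the spinal meninges are not of the neural lineage, but which cells had lost Tia1 was not tested here. All 8 libraries share the injury, and no uninjured cord was analysed here. The sources used here do not give strain, sex, age, the injury model, the segment taken or whether each library came from its own mouse. The p-values therefore measure only the spread between these libraries, which may be technical in part.

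The meninges consist of the dura, the arachnoid and the pia, and each layer holds fibroblasts of its own. Arachnoid cells joined by tight and adherens junctions form a barrier between the dura and the cerebrospinal fluid, and fibroblasts of the inner layers carry transporters that move amino acids, sulfate, drugs and organic ions. Meningeal fibroblasts also make retinoic acid, a signal to neighbouring tissue, and they secrete matrix proteins and carriers into the fluid. Several of the genes are active elsewhere in the cord as well: Ptgds is also made by oligodendrocytes.

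Library totals ran from 14752733 counts in control 1 to 17802884 in CKO 1, and levels below are normalized counts per 1000000 (CPM, scaled with edgeR's TMM factors). Control 1 had 18884 genes with a count against 22434 to 23414 in the other libraries. On the first principal component of all genes tested, 41.6% of the variance, control 1 stood at -94.97 and the others between 5.73 and 21.51. On the second component, 18.8% of the variance, control 3 at 38.73 and CKO 4 at 38.14 stood apart from the others at -30.05 to 0.99. Tia1, the targeted gene, had 41.9, 24.4, 31.3 and 34.2 CPM in control 1 to 4 and 23.4, 27.8, 24.0 and 32.1 CPM in CKO 1 to 4. These ranges overlapped, with p = 0.20 in an exact two-sided permutation test over 70 assignments of the libraries. The whole-gene count of Tia1 takes in cells outside the Nestin lineage and exons outside any deleted part, so it is a weak check of the labels.

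Of the 35 genes, 27 had at least 1 promoter in the RefSeq table for GRCm38.p6, with 32 promoters in all. The 200 bases before the start are printed for Dpp4, which had the widest step between libraries, for Aldh1a2, the enzyme of retinoic acid synthesis with the widest step, and for Dapl1, which held the only forkhead match. Each runs 5′ to 3′ on the gene's own strand, and capitals mark that match.
Dpp4 (chr2:62412232-62412431, minus strand): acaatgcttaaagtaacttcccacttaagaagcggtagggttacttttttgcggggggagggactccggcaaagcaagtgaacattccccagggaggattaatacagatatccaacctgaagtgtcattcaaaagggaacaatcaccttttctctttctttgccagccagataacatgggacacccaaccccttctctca
Aldh1a2 (chr9:71215589-71215788, plus strand): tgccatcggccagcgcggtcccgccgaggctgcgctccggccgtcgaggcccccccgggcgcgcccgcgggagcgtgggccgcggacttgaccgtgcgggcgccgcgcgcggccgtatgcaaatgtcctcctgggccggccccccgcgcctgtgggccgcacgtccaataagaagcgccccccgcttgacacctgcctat
Dapl1 (chr2:59484453-59484652, plus strand): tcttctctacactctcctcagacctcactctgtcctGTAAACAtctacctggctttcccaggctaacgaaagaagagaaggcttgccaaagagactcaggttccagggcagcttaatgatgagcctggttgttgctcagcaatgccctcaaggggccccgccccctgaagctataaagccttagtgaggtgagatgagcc

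The 3 windows differed widely in base composition, with 46% G and C for Dpp4, 77.0% for Aldh1a2 and 52.5% for Dapl1. Over all 32 promoters the median was 54.0%, beside 53.0% over the whole table. A forkhead, a T-box and a nuclear receptor string were searched on both strands in the 250 bases before each start, and none of these strings contains another. The forkhead string TGTTTAC was found in 1 of 32 promoters, that of Dapl1 on the reverse strand, beside 3.17% of all 32851 promoters. The T-box string AGGTGTGA was found in 1 of 32, at the upstream start of Aldh1a1 and not at its later start, beside 1.12% of all. The nuclear receptor string AGGTCA was found in 2 of 32, for Gjb2 and a later start of Slc6a13, beside 14.0% of all. A match is a run of letters and not a known site, and its absence says nothing of the factor.

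Nearly all of the genes stood highest in control 3 and CKO 4, a library of each genotype. Those 2 libraries were the 2 highest of 8 for 30 of the 34 genes tested, beside 8.3% of all 16537 genes tested. Slc22a2, at the limit of detection, had the same order, which makes 31 of 35. The exceptions were Itih5, Ogn, Aldh1a1 and Igfbp2. With control 1 left out the count was 32 of 34, beside 12% of all genes tested, and only Aldh1a1 and Igfbp2 then departed from it. Both libraries reached at least 2 times the highest of the other 6 for 8 of the 34 genes, beside 0.387% of all genes tested: Dpp4, Slc6a13, Prg4, Itih2, Bnc2, Aldh1a2, Dapl1 and Cdh1. These counts rest on the pattern for which several of the genes were chosen, so nothing is read from them about the genes as a class. Between the highest and the lowest library the genes differed by 1.88 to 15.7 times, with a median of 5.40 times, beside a median of 1.95 times over all genes tested. In RNA from whole tissue, fewer cells of a type and less RNA per cell cannot be told apart.

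**Figure D1:**
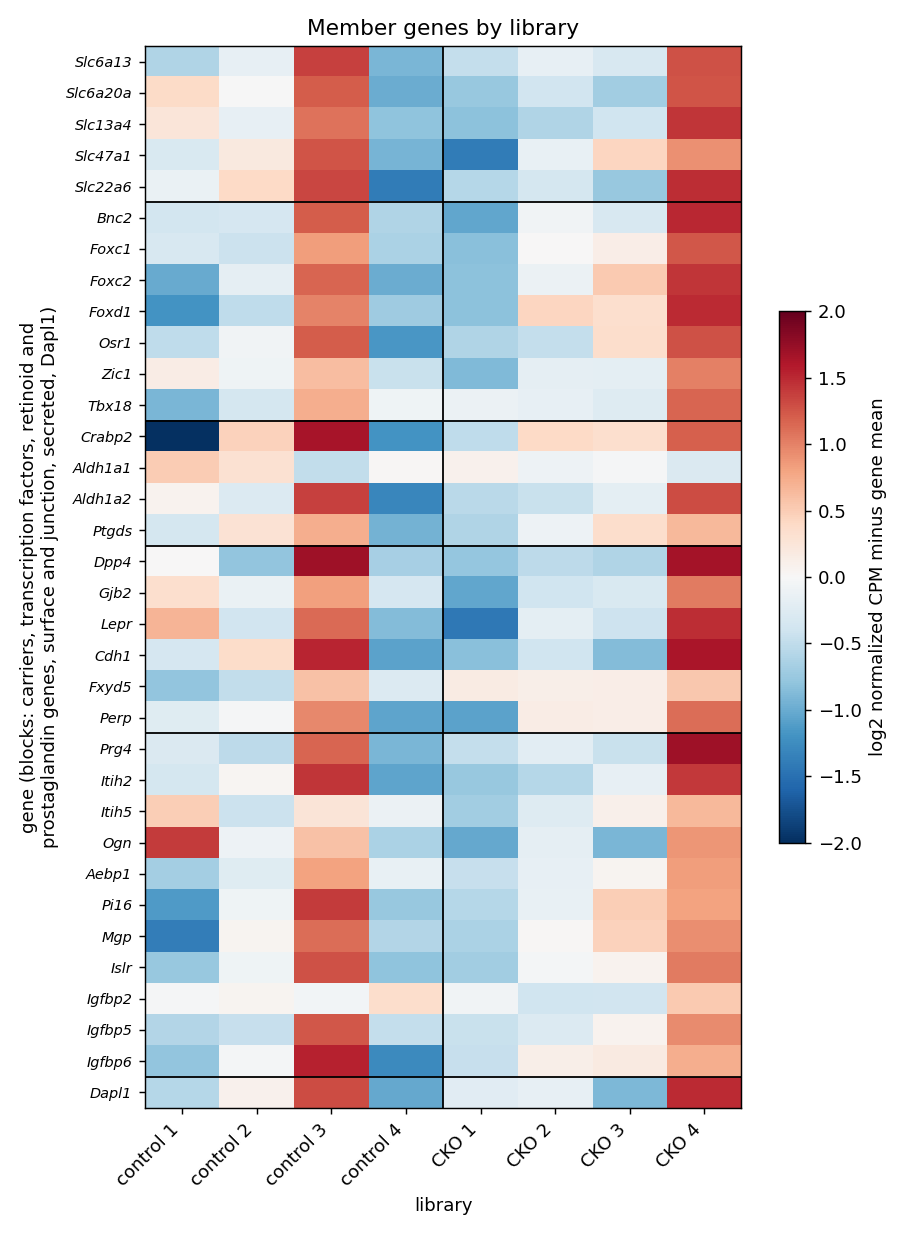
Level of each of the 34 genes tested in each of the 8 libraries, as log2 of normalized CPM relative to the gene's mean over the libraries, with genes ordered by role. The columns of control 3 and CKO 4 are high for most genes, and Aldh1a1 is low in both.

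Per length, the genes spanned a wide range of abundance. The highest medians over the 8 libraries were those of secreted proteins and enzymes: Ptgds at 327 FPKM (fragments per kilobase of gene per 1000000 fragments), Mgp at 182, Aldh1a1 at 125, Igfbp6 at 124 and Igfbp2 at 59.4 FPKM. Transcription factors were lower, from 8.65 FPKM for Zic1 and 8.17 FPKM for Foxc2 to 0.547 FPKM for Tbx18 and 0.392 FPKM for Bnc2. The carriers ran from 8.80 FPKM for Slc47a1 and 5.49 FPKM for Slc6a13 down to 0.777 FPKM for Slc22a6 and 0.0945 FPKM for Slc22a2. The 8 genes with a step of at least 2 times had medians from 0.392 FPKM for Bnc2 to 19.5 FPKM for Aldh1a2, and the genes more abundant than Aldh1a2 had smaller steps.

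All 5 solute carriers tested had control 3 and CKO 4 as the 2 highest libraries. Slc6a13, the GABA transporter of the inner meninges (chromosome 6, 121300227 to 121337733, plus strand, build GRCm38), had 12.6, 16.9, 48.8 and 10.1 CPM in control 1 to 4 and 13.6, 16.9, 15.2 and 46 CPM in CKO 1 to 4. The lower of the 2 high libraries was thus 2.72 times the highest of the other 6. Slc13a4, a sulfate transporter, had 18.2, 13.7, 32.7 and 8.79 CPM in the controls and 8.72, 10.1, 11.7 and 41.3 CPM in the CKO libraries. Slc6a20a, a proline transporter, had 12.4, 9.39, 21.9 and 4.77 CPM in the controls against 5.62, 7.31, 5.84 and 22.7 CPM in CKO 1 to 4. For both of these genes control 1 ranked next after the 2 high libraries.

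Slc47a1, an exporter of organic cations, had 23.7, 33.7, 69.97 and 15.4 CPM in control 1 to 4 and 11.1, 26.4, 39.5 and 55.6 CPM in CKO 1 to 4. It was the carrier with the smallest step, 1.41 times, since CKO 3 was also high. Slc22a6, an organic anion transporter, was found at 3.41, 4.93, 9.49 and 1.42 CPM in the controls and at 2.53, 2.95, 2.23 and 10.4 CPM in the CKO libraries. Slc22a2, an organic cation transporter, had only 7, 3, 21 and 0 counts in control 1 to 4 and 5, 3, 3 and 13 counts in CKO 1 to 4. A count of 0 in control 4 allows a level of up to 0.170 CPM, from 3 counts and for counting error only, so no order among its low libraries can be given.

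All 7 transcription factors had control 3 and CKO 4 as the 2 highest libraries, and all 7 were higher in CKO 4 than in control 3, at ratios of 0.70 to 0.955. Foxc1, a forkhead factor needed to form the meninges, had 28.2, 26.2, 62.8 and 22.5 CPM in control 1 to 4 and 19.7, 35.1, 38.3 and 82.9 CPM in CKO 1 to 4. Foxc2, its close relative, had 12.4, 22.0, 55.8 and 12.5 CPM in the controls and 14.2, 22.9, 35.8 and 67.3 CPM in the CKO libraries. Foxd1, a forkhead factor of mesenchyme, had 12.2, 19.6, 55.3 and 17.1 CPM in the controls against 15.8, 37.5, 35.1 and 78.9 CPM in CKO 1 to 4. In these forkhead genes CKO 2 and CKO 3 lay above all controls but control 3, and CKO 1 lay among the lowest.

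Osr1, a zinc finger factor of mesenchyme, had 9.39, 12.8, 30.9 and 5.96 CPM in control 1 to 4 and 8.77, 9.56, 17.1 and 32.4 CPM in CKO 1 to 4. Zic1, a zinc finger factor of meninges and dorsal neural tissue, had 60.1, 51.2, 83.8 and 40.1 CPM in the controls and 29.6, 48.1, 47.4 and 109.9 CPM in the CKO libraries. Its neighbour Zic4 lies in part on the opposite strand at the same place, and the sources used here do not say whether the counting used the strand. Bnc2, a zinc finger factor of fibroblasts, was low, at 3.13, 3.21, 9.38 and 2.67 CPM in the controls and 1.97, 3.85, 3.25 and 11.6 CPM in CKO 1 to 4. Tbx18, a T-box factor of mesenchyme and of pericytes, was lower still, at 1.53, 2.26, 4.77 and 2.72 CPM in control 1 to 4 and 2.64, 2.57, 2.41 and 6.48 CPM in CKO 1 to 4. For both, the high libraries still stood clear of the rest, though each value rests on few counts.

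The retinoid and prostaglandin genes did not move as a unit. Aldh1a2, which makes retinoic acid from retinal, had 54.9, 43.2, 135 and 21.3 CPM in control 1 to 4 and 36.1, 38.6, 45.9 and 129 CPM in CKO 1 to 4. Its step was 2.36 times the highest other library. Aldh1a1, a related enzyme that can carry out the same reaction, had 886, 771, 442 and 633 CPM in the controls and 667, 582, 612 and 513 CPM in the CKO libraries. Its order was the reverse, with control 3 and CKO 4 the 2 lowest libraries. Both genes encode retinal dehydrogenases, and Aldh1a1 had the far higher level per length, a median of 125 FPKM against 19.5 FPKM for Aldh1a2.

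Crabp2, which carries retinoic acid to the nucleus, had 3.48, 24.1, 54.6 and 7.66 CPM in control 1 to 4 and 12.3, 23.2, 22.1 and 39.9 CPM in CKO 1 to 4. It had the widest range of all the genes, 15.7 times, because control 1 was far below the rest. Ptgds, which makes prostaglandin D and is secreted into the cerebrospinal fluid, had 398, 618, 834 and 262 CPM in the controls and 334, 469, 643 and 795 CPM in the CKO libraries. With a median of 327 FPKM it had the highest level per length of the 35 genes, and its step, 1.24 times, was the narrowest among the genes with control 3 and CKO 4 on top, together with Pi16.

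Proteins of the cell surface and of cell junctions followed the pattern in all 6 cases. Dpp4, a surface peptidase of fibroblasts (chromosome 2, 62330073 to 62412231, minus strand), had 9.52, 5.47, 30.5 and 5.96 CPM in control 1 to 4 and 5.51, 6.61, 6.21 and 30.0 CPM in CKO 1 to 4. Its step of 3.15 times was the widest of the 35 genes. Cdh1, the E-cadherin that joins arachnoid barrier cells, had 16.6, 27.2, 60.2 and 9.99 CPM in the controls and 11.8, 16.0, 11.5 and 65.0 CPM in the CKO libraries. Gjb2, a gap junction subunit of meningeal cells, had 31.8, 23.0, 44.7 and 20.1 CPM in control 1 to 4 and 12.3, 19.2, 20.4 and 51.9 CPM in CKO 1 to 4. In the 6 lower libraries Dpp4 and Gjb2 were highest in control 1, and Cdh1 in control 2.

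Perp, a component of desmosomes, had 17.0, 19.8, 39.2 and 9.70 CPM in control 1 to 4 and 9.56, 22.3, 22.1 and 43.6 CPM in CKO 1 to 4. Lepr, the leptin receptor, had 23.1, 11.1, 31.5 and 7.89 CPM in the controls and 5.34, 12.6, 10.8 and 39.9 CPM in the CKO libraries. Fxyd5, which modulates the sodium pump and cell adhesion, had 72.0, 88.4, 187 and 103 CPM in control 1 to 4 and 139, 135, 136 and 180.4 CPM in CKO 1 to 4. It varied little for one of these genes, and all 4 CKO libraries lay above 3 of the 4 controls. Dapl1, whose promoter is printed above, had 2.64, 4.16, 9.77 and 1.93 CPM in the controls and 3.37, 3.53, 2.11 and 11.1 CPM in the CKO libraries, again with the pair on top.

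Of the 11 matrix and secreted proteins, 8 had control 3 and CKO 4 on top. Prg4, the lubricin that coats sliding surfaces (chromosome 1, 150449412 to 150466165, minus strand), had 24.6, 21.1, 68.0 and 16.0 CPM in control 1 to 4 and 21.8, 26.0, 22.1 and 98.4 CPM in CKO 1 to 4. Its neighbour Tpr overlaps it on the opposite strand, at 68.4 to 106 CPM over the 8 libraries with 106 CPM in CKO 4 and 93.2 CPM in control 3. Itih2, a heavy chain that binds hyaluronan (chromosome 2, 10094593 to 10131396, minus strand), had 23.4, 30.9, 81.2 and 14.5 CPM in the controls and 17.8, 20.2, 26.7 and 80.3 CPM in the CKO libraries. Itih5, a heavy chain of the same family 22174 bases away (chromosome 2, 10153571 to 10256529, plus strand), had 128, 67.6, 108 and 84.2 CPM in control 1 to 4 and 55.8, 76.2, 97.9 and 142 CPM in CKO 1 to 4. Itih2 thus held the pair clear of the other 6 libraries, while in Itih5 control 1 exceeded control 3.

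Ogn, the leucine-rich proteoglycan osteoglycin, had 193, 68.6, 109.6 and 47.3 CPM in control 1 to 4 and 35.9, 64.8, 39.0 and 135 CPM in CKO 1 to 4. As in Itih5, control 1 was among the highest, here above both. Aebp1, which binds collagen, had 58.0, 78.0, 162 and 83.6 CPM in the controls and 67.0, 82.5, 95.5 and 165 CPM in the CKO libraries. Islr, a surface-anchored protein of mesenchymal stromal cells, had 65.1, 105, 269 and 63.1 CPM in control 1 to 4 and 68.4, 108, 116 and 227 CPM in CKO 1 to 4. Mgp, which prevents calcification of matrix, had 80.9, 221, 458 and 141 CPM in the controls and 136, 215, 292 and 404 CPM in the CKO libraries. Pi16, a marker of adventitial fibroblasts, had 7.99, 16.6, 46.4 and 10.4 CPM in control 1 to 4 and 11.9, 16.0, 24.8 and 30.8 CPM in CKO 1 to 4. In Mgp and Pi16 control 1 was the lowest library, and CKO 3 ranked next after the pair.

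The binding proteins of insulin-like growth factors split. Igfbp5 (chromosome 1, 72857932 to 72874884, minus strand) had 261, 283, 927 and 281 CPM in control 1 to 4 and 286, 322, 408 and 749.5 CPM in CKO 1 to 4. Igfbp6 had 77.4, 131, 391 and 55.8 CPM in the controls and 97.5, 147, 152 and 222 CPM in the CKO libraries. Igfbp2, 5457 bases from Igfbp5 on the other strand (chromosome 1, 72824503 to 72852474, plus strand), had 112, 119, 109.9 and 145 CPM in control 1 to 4 and 109, 86.9, 87.4 and 163 CPM in CKO 1 to 4. Igfbp5 and Igfbp6 had both libraries on top, whereas Igfbp2 was high in CKO 4 and control 4 and had 109.9 CPM in control 3. The 2 adjacent genes on chromosome 1 therefore differed in pattern. No promoter of either is printed here.

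**Figure D2:**
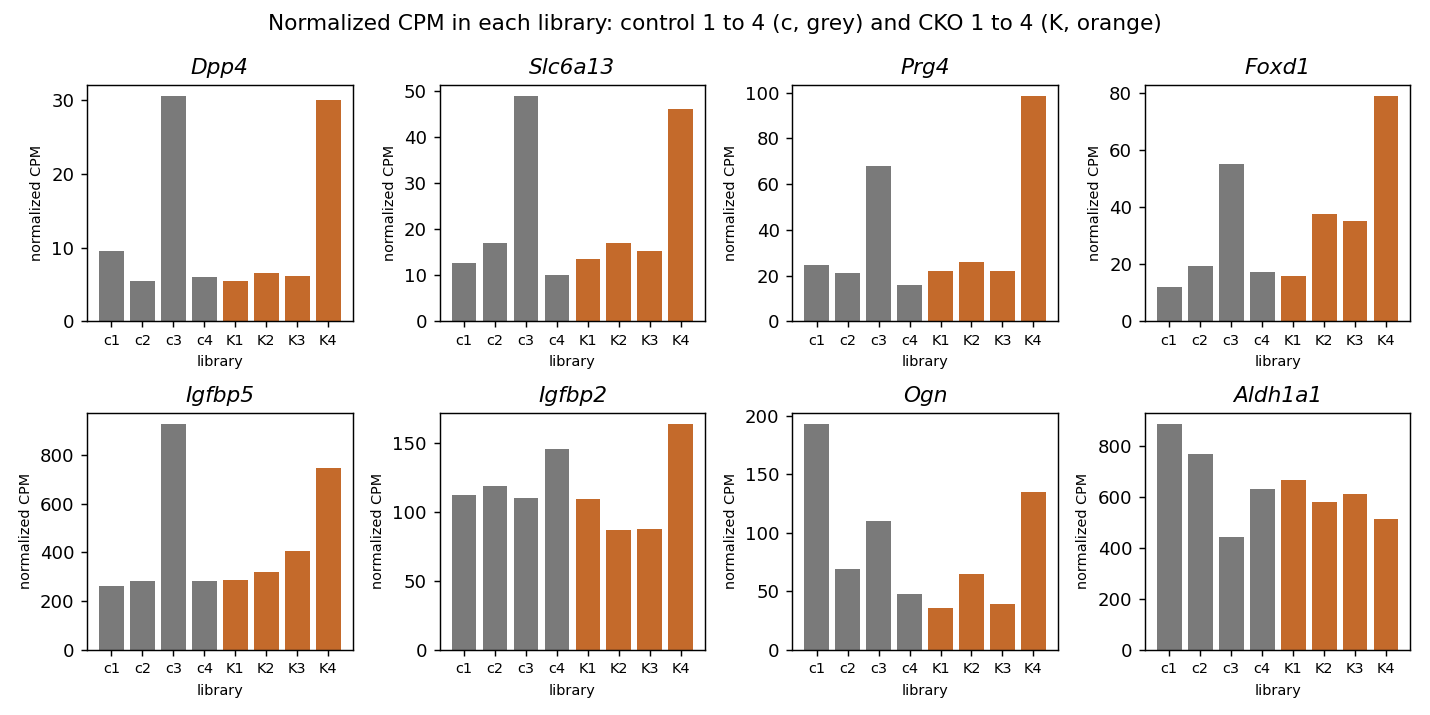
Normalized CPM of 8 of the genes in each library as bars from 0, with control 1 to 4 in grey (c1 to c4) and CKO 1 to 4 in orange (K1 to K4). Dpp4, Slc6a13, Prg4, Foxd1 and Igfbp5 are highest in c3 and K4, Igfbp2 is highest in K4 and c4, Ogn in c1, and Aldh1a1 is lowest in c3 and K4.

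The 2 high libraries were not copies of each other. Of the 31 genes with this pair on top, 14 were highest in control 3 and 17 in CKO 4. Control 3 stood above CKO 4 by 1.76 times for Igfbp6, 1.51 times for Pi16, 1.37 times for Crabp2 and 1.26 times for Slc47a1. The ratio ran the other way for Prg4 at 0.69, Foxd1 at 0.70 and Tbx18 at 0.74.

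**Figure D3:**
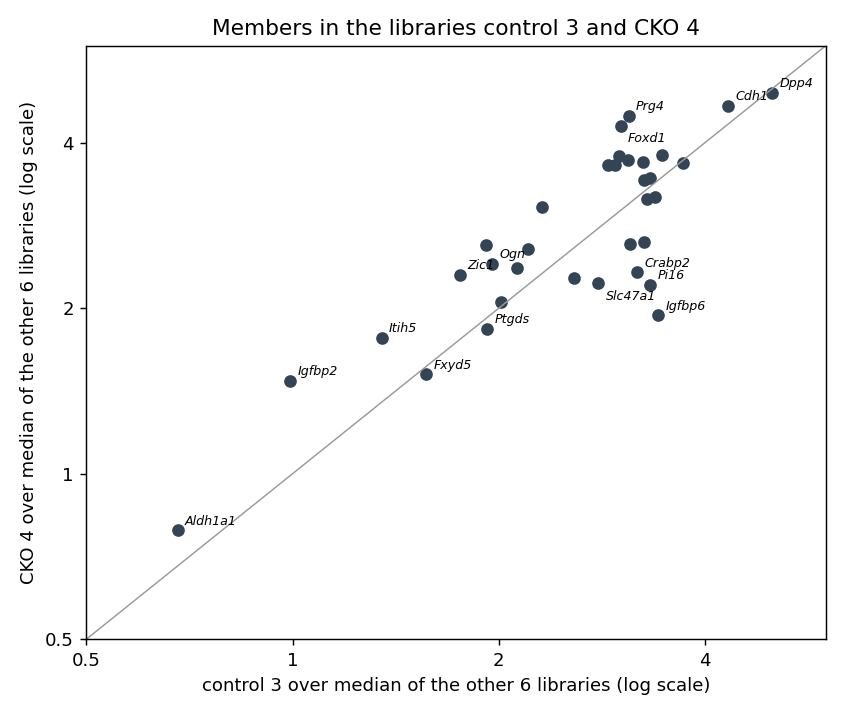
Level of each gene tested in control 3 (x axis) and CKO 4 (y axis), each divided by the median of the other 6 libraries, on log scales, with the line of equality. Dpp4 is at the top right, Igfbp6, Pi16 and Crabp2 lie below the line, and Aldh1a1 is below 1 in both libraries.

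The other 6 libraries also differed among themselves, by 1.52 to 6.94 times per gene with a median of 2.31 times. Among these 6, control 1 was highest for 10 genes (Slc6a20a, Slc13a4, Itih5, Ogn, Aldh1a1, Aldh1a2, Dpp4, Gjb2, Zic1 and Lepr) and lowest for 9. CKO 3 was highest for 11 (Slc47a1, Aebp1, Ptgds, Foxc1, Foxc2, Pi16, Mgp, Osr1, Islr, Igfbp5 and Igfbp6) and lowest for 0. Control 4 was the lowest for 12 genes and CKO 1 for 10. The genes therefore did not share 1 order below the pair. Control 1 is the library that stood apart on the first principal component, and its part in these ranks was not tested.

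The genes were compared next with lists of other genes, as mean log2 CPM relative to each gene's own mean. The 34 genes stood at -0.34, -0.12, 1.02 and -0.72 in control 1 to 4 and at -0.65, -0.17, -0.12 and 1.10 in CKO 1 to 4. The 12 genes of fibroblasts in general stood at -0.13, -0.42, 0.73 and -0.22 in the controls and at -0.55, -0.22, 0.19 and 0.62 in the CKO libraries. Control 3 and CKO 4 were thus the 2 highest libraries of both lists. Of the 12 fibroblast genes 8 had that pair on top, Dcn and Col3a1 among them. Dcn, the small proteoglycan decorin, had 350.0, 183, 572 and 189 CPM in control 1 to 4 and 179, 214, 207 and 532 CPM in CKO 1 to 4. Col1a1, a fibrillar collagen chain, was not among the 8, with 611, 667, 957 and 778 CPM in the controls and 454, 566, 852 and 808 CPM in the CKO libraries.

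A list of 14 further meningeal genes, 12 of them tested, stood at 0.68 in control 3 and 0.87 in CKO 4, with the pair on top for 8 of 12. One of these, Smoc2, a matrix protein, had 69.1, 120.0, 231 and 63.5 CPM in control 1 to 4 and 68.0, 115, 136 and 238 CPM in CKO 1 to 4. The exceptions were S100a6, Lama1, Dkk2 and Cemip. Krt8 and Krt18 of this list did not pass the filter on low counts. S100a6, with a higher mean than Smoc2, had 194, 263, 376 and 253 CPM in the controls and 385, 319, 308 and 306 CPM in the CKO libraries. The retinoid pathway list, 13 of 14 genes tested, stood at 0.55 in control 3 and 0.46 in CKO 4, with the pair on top for 8 of 13. Stra6, the receptor that takes up retinol, had 22.5, 31.0, 158 and 23.2 CPM in the controls and 40.4, 49.3, 48.9 and 93.1 CPM in the CKO libraries. The receptors Rara, Rarb and Rarg also had the pair on top, while Crabp1, Cyp26b1, Dhrs3, Rxra and Rxrg did not. Of the 8 scar fibroblast genes, 4 had the pair on top, Fn1, Col12a1, Lox and Fap. Fn1, fibronectin, had 635, 375, 1359.6 and 1018 CPM in the controls and 791, 786, 755 and 1285 CPM in the CKO libraries.

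Markers of other cell types were read beside these levels. Of the 8 pericyte and smooth muscle genes 0 had the pair on top, with list levels of 0.26 in control 3 and -0.12 in CKO 4 and sums of 120.0 to 227 CPM in the controls and 157 to 197 CPM in the CKO libraries. Of the 5 endothelial genes only Cdh5 did, at 20.9, 19.6, 69.6 and 24.6 CPM in control 1 to 4 and 24.1, 30.4, 29.0 and 69.0 CPM in CKO 1 to 4. The endothelial sum was 72.6 to 143 CPM in the controls and 111 to 128 CPM in the CKO libraries. Skeletal muscle genes, 6 of 6 tested, were high in control 3 at 2.56 but low in CKO 4 at -0.99, and Acta1, muscle actin, reached 379 CPM in the first of these libraries against 29.6 CPM in the second. Their sum ran from 20.4 to 529 CPM in the controls and from 13.7 to 339 CPM in the CKO libraries. Muscle transcripts were thus high in 1 of the pair and low in the other. They were also high in CKO 1 at 2.11 and CKO 3 at 1.78, where the meningeal genes stood at -0.65 and -0.12. The mean level of the 5 neuron genes was lowest in control 3 and CKO 4, at -0.37 and -0.35, although Snap25 and Syt1 alone had both as their 2 lowest libraries. Their sum was 608 to 1748 CPM in the controls and 673 to 867 CPM in the CKO libraries, and Snap25, a synaptic protein, had 315 and 358 CPM in that pair. Oligodendrocyte genes (5 of 5 tested) stood at -0.59 and -0.16 and astrocyte genes (5 of 5) at -0.37 and -0.10. In the lists for cartilage, bone and tendon, ependymal cells, Schwann cells, skin epithelium, microglia and macrophages, neutrophils and erythroid cells, 0 genes had the pair on top. The list for cartilage, bone and tendon was nonetheless highest in control 3, at 0.64, followed by CKO 1 at 0.62, and stood at -0.28 in CKO 4. Of the 5 choroid plexus genes, Otx2 was at 0 in every library, Ttr reached no more than 0.789 CPM, Folr1 no more than 1.86 CPM and Kl no more than 4.45 CPM. The fifth, Kcnj13, did not pass the filter on low counts but had the pair on top, with 5, 16, 47 and 7 counts in control 1 to 4 and 4, 9, 7 and 51 counts in CKO 1 to 4. Lep of the adipose list was likewise at 0 in every library. The other adipose genes, Adipoq, Plin1 and Cidec, did not pass the filter on low counts and were highest in control 3. They had 19, 22 and 23 counts there, against 3, 3 and 2 counts in CKO 4. The adipose sum was 3.55 CPM in control 3, 1.57 CPM in CKO 1 and 0.451 CPM in CKO 4. Which cells the RNAs came from cannot be read from whole cord. Slc6a13, Aldh1a2, Foxc1 and Cdh1, picked from the 35 genes, were counted in every library. Slc22a2 had 0 counts in control 4. Krt8 and Krt18 of the further meningeal list had 0 counts in control 1, and no more than 8 and 11 counts in any library. The part of the other cell types in the levels of the meningeal genes was not tested.

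**Figure D4:**
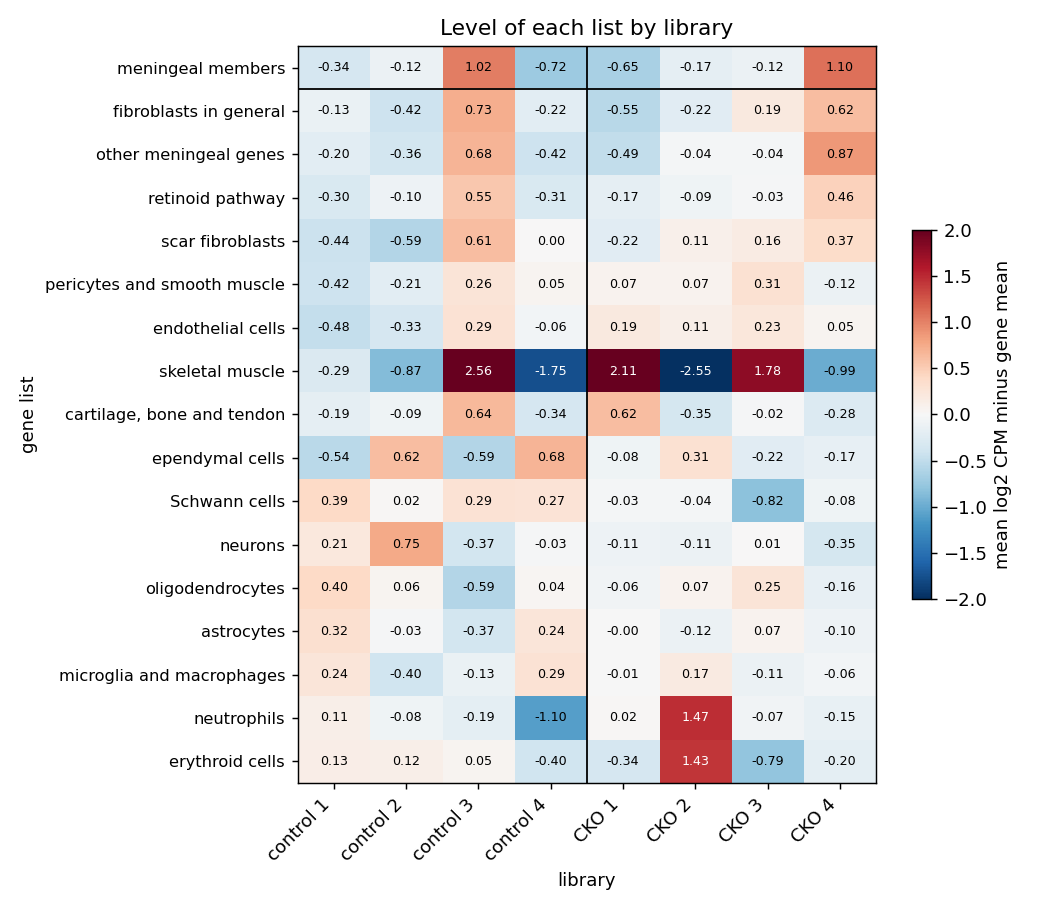
List levels in the 8 libraries as a colour scale (mean log2 CPM relative to the gene mean), for the meningeal fibroblast genes and the comparison lists, with colours capped at the ends of the scale. Skeletal muscle is at 2.56 in control 3 and -0.99 in CKO 4, while the fibroblast and meningeal lists are high in both.

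The series compares the genotypes, and the meningeal genes did not differ between them by the test. By edgeR's quasi-likelihood test with Benjamini-Hochberg adjustment, 0 of the 34 genes passed an adjusted p of 0.05, beside 0% of the 16537 genes tested. At an unadjusted p under 0.05 there were 0 of 34, beside 1.42% of all genes, which is 234 genes. The groups overlapped for all 34, beside 1.19% of all genes tested, 197 genes, whose groups did not overlap. DESeq2 called 1 gene in all, none of the 34, and limma-voom called 0. In all, 18 genes had a higher fitted mean in CKO, beside 48.1% of all genes tested, and 16 a lower one. The median log2 fold change was 0.02, beside -0.01 over all genes. The smallest unadjusted p of the 34 was 0.170, for Fxyd5, and all adjusted p-values were 1.00 to 3 digits.

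By role, 1 of 5 solute carriers had a higher fitted mean in CKO, and so did 6 of 7 transcription factors, 2 of 4 retinoid and prostaglandin genes, 2 of 6 surface and junction genes and 6 of 11 secreted proteins. None of these differences passed the test. Foxd1 had 26.0 ± 19.7 CPM (SD, n = 4) in the controls and 41.8 ± 26.5 CPM (SD, n = 4) in the CKO libraries, a log2 fold change of 0.68 (SE 0.52, 95% interval -0.47 to 1.83). Foxc2 had a log2 fold change of 0.45 (SE 0.55, -0.76 to 1.65). Fxyd5 had 113 ± 51.0 CPM against 148 ± 21.9 CPM, a log2 fold change of 0.39 (SE 0.27, -0.20 to 0.98). The direction was the other way for Ogn, with 105 ± 64.1 CPM in the controls and 68.7 ± 46.2 CPM in the CKO libraries and a log2 fold change of -0.60 (SE 0.49, -1.67 to 0.47). It was likewise for Aldh1a1, at 683 ± 191 CPM against 593 ± 64.4 CPM and a log2 fold change of -0.20 (SE 0.21, -0.66 to 0.25). For each of these genes the difference of the means was smaller than the SD of the controls. The intervals were wide: their median half-width was 1.13 on the log2 scale, beside 0.50 over all genes tested.

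The medians depended on control 3 and CKO 4, one of which is in each group. Most of the genes were highest in these libraries, and several were chosen for high and low levels across the libraries. Leaving out 1 of the pair therefore moved the fold changes of such genes in a direction set beforehand. The p-values without these libraries are given as a description, and nothing is read from them about genotype. Without control 3 the median log2 fold change of the genes was 0.68, without CKO 4 it was -0.37, and without both it was 0.12. Without control 3, Foxc2, Foxd1, Pi16, Fxyd5, Igfbp5 and Igfbp6 had an unadjusted p under 0.05 with a smallest adjusted p of 0.757 by edgeR, beside 6.56% of all genes tested in that fit. Without CKO 4, Ogn and Gjb2 did, both in the other direction, beside 1.31% of all genes. Without both libraries, Foxd1 at 0.85, Fxyd5 at 0.64 and Ogn at -1.13 did, with an adjusted p of 0.870, beside 4.26% of all genes. Over all 19 alternative settings the adjusted p of the genes ran from 0.757 to 1.00.

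**Figure D5:**
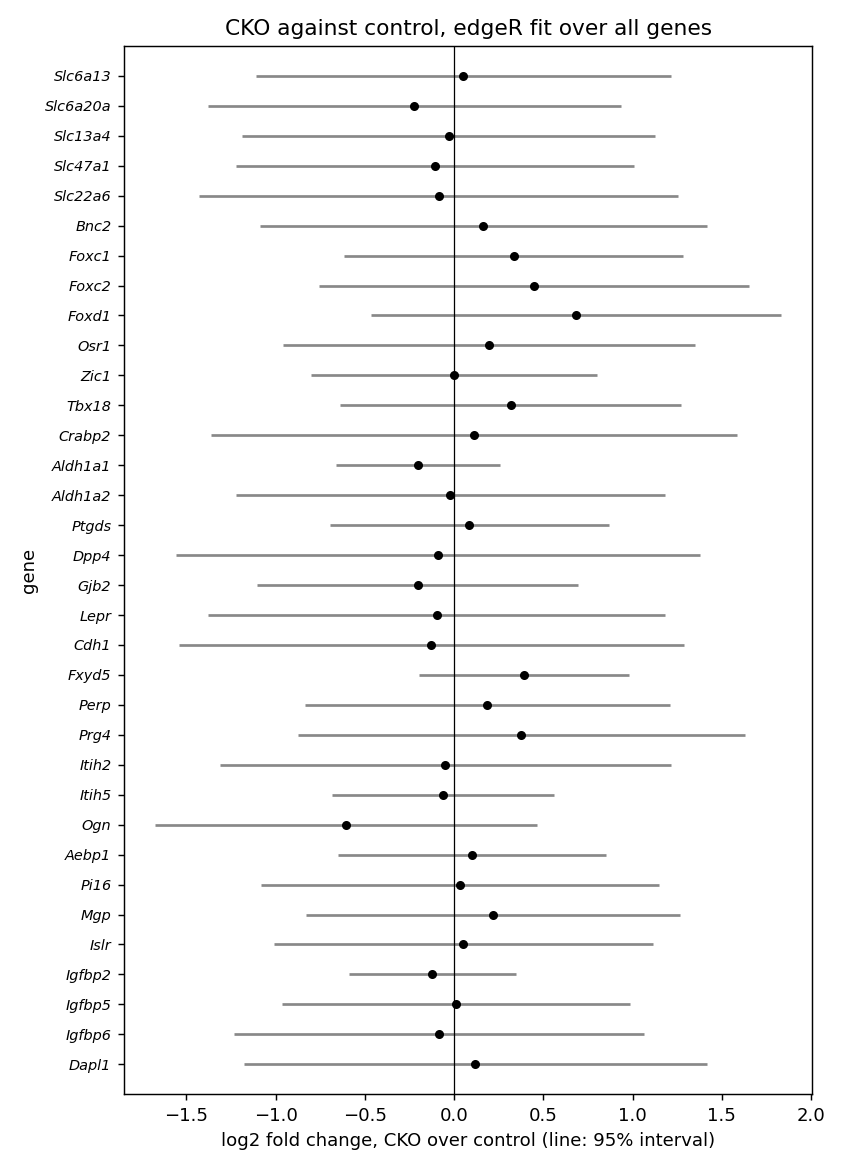
Log2 fold change of CKO against control for the 34 genes tested, with 95% intervals from edgeR's quasi-likelihood fit over all 8 libraries. All 34 intervals include 0, and their median half-width is 1.13.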

How the data were processed

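RNA from injured cord was extracted with TRIzol and made into libraries with an NEBNext Ultra kit, per the labels' protocols. Per the submitters' processing notes the tools included HISAT2 2.0.5, featureCounts 1.5.0-p3, CASAVA 1.8 and fastp, also DESeq2 1.20.0, and the genome build was GRCh38. Gene coordinates in the deposited table were the same as in GENCODE M21 (GRCm38) for 98.3% of 54409 shared gene IDs, so they are given as GRCm38. The authors deposited raw counts per gene, FPKM values and gene lengths. The deposited FPKM were the counts divided by gene length and by 1 constant per library, which was 0.971 to 1.03 of the library total.

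Counts were tested with edgeR 4.0.16 (quasi-likelihood, TMM, filterByExpr) in R 4.3.3 on 4 against 4 libraries, with Benjamini-Hochberg adjustment over 16537 genes. Alternatives used DESeq2 1.42.0, limma 3.58.1 on counts and on log2 of FPKM plus 1 or 0.1, other filters and scaling, a replicate block and libraries left out. Values by library are given for genes with a mean of at least 5 CPM or a range of at least 4 times. Of each comparison list they are given for at most 4 genes of highest mean. Counts of some list genes that did not pass the filter are also given. The genes and lists were chosen with earlier results of these data known. Planned protein comparisons were not made. Further list genes named without values, and the genes under other observations, were singled out after their values were seen.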

Additional observations from a re-analysis of the deposited data

Results flagged for a closer look

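Dixon's criterion at 95% was applied to 70 groups of 4 libraries. The groups were the 34 genes tested and their mean level, each in both genotypes. By it, 17 single values lay far from the other 3 of their group. Since the genes were chosen in part for high and low levels across these libraries, the number of such values is a description and is not read against chance. All 17 were high values, in CKO 4 or control 3. In CKO 4, 12 genes stood out: the carriers Slc6a13 at 46 CPM, Slc6a20a at 22.7, Slc13a4 at 41.3 and Slc22a6 at 10.4 CPM, the secreted proteins Prg4 at 98.4 and Itih2 at 80.3 CPM, the enzyme Aldh1a2 at 129 CPM, the surface proteins Dpp4 at 30.0, Cdh1 at 65.0 and Fxyd5 at 180.4 CPM, the T-box factor Tbx18 at 6.48 CPM and Dapl1 at 11.1 CPM. In control 3, 5 genes stood out: Prg4 at 68.0 CPM, Bnc2 at 9.38, Foxc1 at 62.8, Dpp4 at 30.5 and Igfbp5 at 927 CPM. Prg4 and Dpp4 stood out in both groups.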

How the results depend on the processing

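No setting called any of the 34 genes. Over all genes tested edgeR called 0, DESeq2 called 1 and edgeR called 2 without control 1, control 3 and CKO 4, an alternative chosen after seeing the data. That choice leaves 2 controls and 3 CKO libraries. The setting without control 3 and CKO 4 together is not a neutral choice either, since most of the genes were highest in those libraries.

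The log2 fold changes reversed, from values near 0, as follows. Without control 3 and CKO 4, Slc47a1 was 0.084, Aldh1a2 0.024 and Igfbp6 0.59. Without control 1 as well, Slc47a1 was 0.063, Itih5 0.011, Aldh1a2 0.32, Dpp4 0.094, Lepr 0.014, Dapl1 -0.016 and Igfbp6 0.50. By limma-voom Aldh1a2 was 0.073 and Igfbp6 0.28, on log2 of FPKM plus 1 they were 0.068 and 0.28, and on log2 of FPKM plus 0.1 they were 0.076 and 0.29. Zic1 was 0.00091 with DESeq2's scaling in edgeR, 0.021 without a filter and 0.0060 by DESeq2's test. The cause of these changes was not tested.

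With each library left out in turn, the median of the genes ran from -0.37 to 0.68, and these genes changed sign at least once: Aebp1 -0.23 to 0.49, Aldh1a2 -0.66 to 0.66, Bnc2 -0.61 to 0.79, Cdh1 -1.12 to 0.55, Crabp2 -0.24 to 1.05, Dapl1 -0.63 to 0.80, Dpp4 -1.08 to 0.80, Foxc1 -0.17 to 0.79, Foxc2 -0.086 to 1.17. So did Gjb2 -0.79 to 0.064, Igfbp5 -0.38 to 0.69, Igfbp6 -0.38 to 0.81, Islr -0.37 to 0.75, Itih2 -0.80 to 0.67, Itih5 -0.34 to 0.12, Lepr -0.94 to 0.31, Mgp -0.075 to 0.83, Osr1 -0.33 to 0.86, Perp -0.26 to 0.66. The same held for Pi16 -0.23 to 0.84, Prg4 -0.48 to 1.04, Ptgds -0.14 to 0.40, Slc13a4 -0.85 to 0.42, Slc22a6 -0.91 to 0.49, Slc47a1 -0.48 to 0.46, Slc6a13 -0.54 to 0.80, Slc6a20a -0.95 to 0.24, Tbx18 -0.16 to 0.70, Zic1 -0.50 to 0.23. Aldh1a1, Foxd1, Fxyd5, Igfbp2 and Ogn kept their sign in these 8 fits.

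The sources used here do not say that the replicate numbers pair the libraries. Correlations were taken on log2 CPM after each gene's mean within its genotype was subtracted. Same-numbered libraries then correlated at -0.06, 0.05, -0.09 and -0.33, and libraries of different number at -0.19 to 0.24. These values cannot decide whether the numbers pair the libraries. With the replicate block 0 genes were called, the median of the genes was 0.11 and Igfbp6 was 0.27.

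Depth limits Slc22a2 most, and Tbx18, Slc22a6, Dapl1 and Bnc2, all with means under 5 CPM, more than the other genes. PCR reads without molecular identifiers are not independent molecules, so floors cover counting error only.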

Other observations

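Other genes of this table shared the 2 high libraries, and some had a wider step than most of the meningeal genes. They were singled out after their values were seen, among genes with a mean of at least 5 CPM, so they are given as values with no test. Of the 100 genes with the widest step among 12416 such genes, 12 were among the 35 described above. Thsd4, a matrix protein with thrombospondin repeats, had 18.01, 20.9, 59.4 and 16.5 CPM in control 1 to 4 and 16.1, 21.4, 19.8 and 80.4 CPM in CKO 1 to 4. Bmp7, a bone morphogenetic protein, had 16.8, 19.7, 59.0 and 13.7 CPM in the controls and 16.1, 18.7, 21.4 and 58.3 CPM in the CKO libraries. Ltbp4, which binds latent TGF-beta in the matrix, had 24.0, 42.5, 132 and 46.1 CPM in control 1 to 4 and 33.7, 45.6, 48.9 and 125 CPM in CKO 1 to 4. For these genes the pair stood at more than 2 times any other library.

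Tnxb, a tenascin of connective tissue, had 8.69, 24.0, 97.1 and 18.4 CPM in control 1 to 4 and 20.7, 27.8, 23.9 and 70.2 CPM in CKO 1 to 4. Msln, mesothelin, a surface protein of mesothelial cells, had 7.51, 25.1, 62.6 and 8.79 CPM in the controls and 14.7, 21.8, 17.2 and 60.9 CPM in the CKO libraries. Thbd, thrombomodulin, a surface receptor of endothelial and mesothelial cells, had 75.1, 66.0, 186 and 35.9 CPM in control 1 to 4 and 49.99, 72.0, 64.8 and 239.6 CPM in CKO 1 to 4. In Tnxb and Msln control 1 was the lowest library.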
